A study of Mus musculus with 4 samples.

Results

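The genes described here are 41 listed genes of pyruvate entry, the TCA cycle and fatty acid oxidation, read in satellite cells from young and aged mice. A gene was included when at least 1 probe set was annotated to it and to no other gene, and its value was the mean of those probe sets. This gave 39 measured genes with 88 probe sets, of 18193 genes in all. Acsl1 and Cpt1b, the muscle form of carnitine palmitoyltransferase, had no such probe set and were not analysed here. Satellite cells are the stem cells of skeletal muscle. Per the labels they came from hindlimb muscle of C57BL/6J mice, 3 to 6 months old (young) or 20 to 25 months old (aged), and were sorted on syndecan-4 as primary cells with no culture step named. Each age had 2 independent pools and each pool 1 Affymetrix array, with 4 to 8 mice per pool in the series text and 6 to 8 in the sample text. The sex of the mice is not given in the sources used here.

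Pyruvate enters the mitochondrion and is turned into acetyl-CoA by the pyruvate dehydrogenase complex, which the Pdk kinases switch off by phosphorylation. Fatty acids reach the same acetyl-CoA through binding proteins, the carnitine shuttle and repeated rounds of beta-oxidation, whose electrons pass through the electron transfer flavoprotein to the respiratory chain. Acetyl-CoA is then burned in the TCA cycle. Mature muscle fibres are rich in all of these enzymes. Quiescent satellite cells have few mitochondria and are known for reliance on fatty acid oxidation, and the coactivator Ppargc1a drives mitochondrial gene expression.

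The promoters of 4 members are shown. Dlat and Pdk2 had the largest differences of all members, Acadm was chosen as a beta-oxidation enzyme whose promoter held a core site for estrogen-related receptors, and Ppargc1a is the coactivator that works with those receptors. Sequences are from RefSeq on build GRCm38.p6 and run from 250 bases before to 50 bases after the annotated start, in the direction of the gene. For Pdk2, which has more than 1 annotated start, the most upstream window is shown. Capitals mark the receptor core AAGGTCA on either strand and E-boxes, CANNTG, the sites of myogenic and other basic helix-loop-helix factors.
Dlat, chr9:50659731-50660030, minus strand: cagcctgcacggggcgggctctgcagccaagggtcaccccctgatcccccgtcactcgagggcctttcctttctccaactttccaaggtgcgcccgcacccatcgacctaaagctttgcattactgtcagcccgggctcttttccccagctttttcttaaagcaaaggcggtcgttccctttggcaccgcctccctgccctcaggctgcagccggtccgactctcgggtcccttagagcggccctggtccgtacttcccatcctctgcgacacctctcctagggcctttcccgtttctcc
Pdk2, chr11:95041322-95041621, minus strand: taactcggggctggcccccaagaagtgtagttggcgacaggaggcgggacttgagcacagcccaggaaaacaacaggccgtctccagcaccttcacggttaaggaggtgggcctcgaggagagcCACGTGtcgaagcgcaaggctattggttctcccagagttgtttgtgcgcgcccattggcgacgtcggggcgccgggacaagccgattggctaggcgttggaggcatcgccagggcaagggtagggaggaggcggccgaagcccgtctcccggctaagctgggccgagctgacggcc
Acadm, chr3:153944594-153944893, minus strand: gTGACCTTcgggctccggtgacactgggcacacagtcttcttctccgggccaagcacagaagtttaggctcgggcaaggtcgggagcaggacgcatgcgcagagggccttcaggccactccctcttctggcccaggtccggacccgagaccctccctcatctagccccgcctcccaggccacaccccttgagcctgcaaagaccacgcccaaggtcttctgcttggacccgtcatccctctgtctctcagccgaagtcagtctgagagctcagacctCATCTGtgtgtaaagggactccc
Ppargc1a, chr5:51567676-51567975, minus strand: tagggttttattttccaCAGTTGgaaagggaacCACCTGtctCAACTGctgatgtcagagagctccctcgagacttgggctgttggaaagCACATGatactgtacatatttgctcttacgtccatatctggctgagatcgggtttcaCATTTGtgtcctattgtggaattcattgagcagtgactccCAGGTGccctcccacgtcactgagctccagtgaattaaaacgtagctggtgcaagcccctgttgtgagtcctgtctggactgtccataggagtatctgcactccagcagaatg

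In these windows Dlat held neither motif, Pdk2 held 1 E-box, Acadm held 1 receptor core and 1 E-box, and Ppargc1a held 6 E-boxes. Promoters were found for 37 of the 41 listed genes. An E-box stood in the promoters of 27 of the 37 (73.0%), against 74.99% of 27025 genes with a window of that length. The receptor core was found in 2 of 37 members, Acadm and Ogdh (5.41%, against 5.38% of all genes). The longer receptor element TNAAGGTCA, which contains the core, matched 0 of 37 members and 1.43% of all genes, and the palindrome of the factor NRF1 matched Etfdh alone (2.70%, against 1.07%). All motifs were searched on both strands. The members' shares of the E-box and of the core were close to those of all genes.

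Most of the pathway was lower in aged cells. Of the 39 members, 33 had a lower mean in the aged pools (84.6%, against 46.2% of all genes) and 6 a higher one. Their median log2 difference (aged minus young) was -0.76, or 1.70-fold lower. Over all genes the median difference was 0.05. The deposited values, taken as log2, have the 4-array median of every probe set removed. They therefore give differences between pools and no expression levels. With limma, 0 of 39 members passed an adjusted p of 0.05, and neither did any other gene (0% of 18193). At an unadjusted p under 0.05, a looser mark used here as a description, 16 members were lower (41.0%) and 0 higher, where 6.19% of all genes were lower and 2.85% higher at that mark. Both young pools stood above both aged pools in 22 members (56.4%, against 16.9% of all genes), among them Suclg1 by 0.04 and Sucla2 by 0.13 only. They stood below both in 3, Cd36, Cpt2 and Hadhb (7.69%, against 19.9%), where Cd36 and Hadhb were separated by 0.01 and 0.02 only. The median member value was 0.48 and 0.37 in young pools 1 and 2, and -0.32 and -0.70 in aged pools 1 and 2. Leaving out 1 pool at a time gave a median over members from -1.13 to -0.66. Taking for each gene the probe set with the largest SD gave a median of -1.33.

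**Figure D1:**
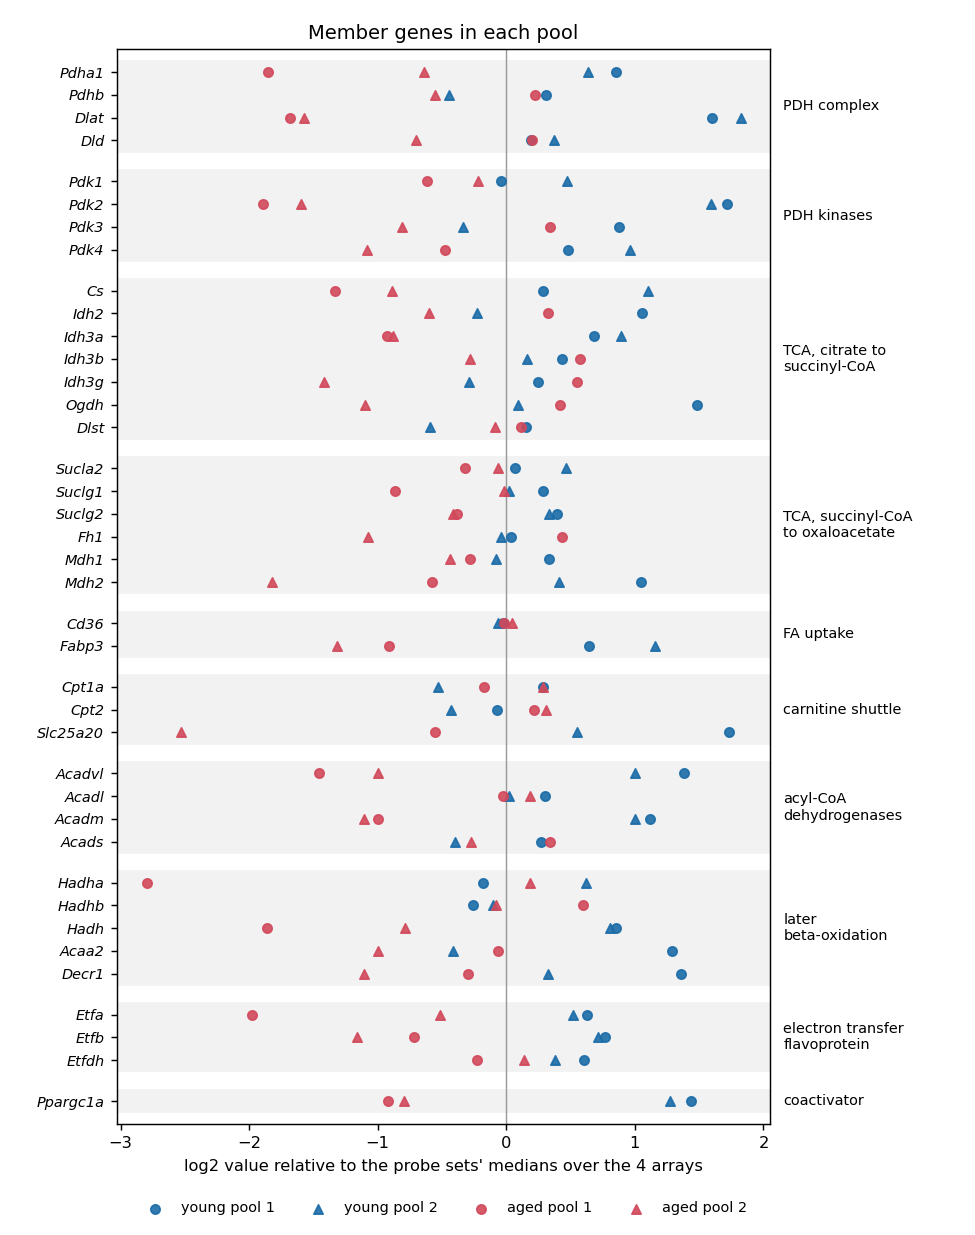
Value of each of the 39 measured members in each pool, by pathway step; the x axis is the log2 value after removal of the 4-array median, blue marks young and red aged pools, circles pool 1 and triangles pool 2. The young and aged pools of Dlat lie farthest apart with those of Pdk2 (young 1.59 to 1.82, aged -1.89 to -1.58 over both genes), while Cd36 lies between -0.06 and 0.04 in every pool.

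Muscle fibre markers were lower in the aged pools as well. All 23 measured muscle fibre markers were lower in aged cells, 22 of them at an unadjusted p under 0.05, with a median of -2.82 and a range of -4.55 to -1.46. The median value of these markers was 1.24 and 1.37 in the young pools and -1.37 and -1.29 in the aged pools. Ryr1, the calcium release channel (-4.45 ± 0.42), Neb, a giant thin filament protein (-4.03 ± 0.41) and Myoz1, a Z-disc protein (-4.55 ± 0.49) had the smallest p-values. In pooled cells, fewer cells of a type and less RNA per cell cannot be told apart. The part of fibre RNA in the metabolic differences was not tested. Of the 39 members, 17 lay within the range of the fibre markers and 2, Dlat and Pdk2, at or below their median. These 17 were the 16 members lower at an unadjusted p under 0.05 in limma, and Hadha. The share of all genes within that range was not counted, so nothing is concluded from the 17.

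Markers of other cell types differed in both directions. Pax7, which marks satellite cells, was higher (2.31 ± 0.36), as were Myf5 (2.56 ± 0.63) and Sdc4 (1.22 ± 0.53). Of the 12 satellite cell markers listed, 7 were higher and 5 lower, with a median of 0.10. Markers of endothelium were lower in 9 of 12 cases (median -0.41), with Egfl7 at -1.08, Tie1 at -2.30 and Emcn at -1.66, and those of macrophages in 8 of 10 (median -0.91), with Adgre1 at -2.42, C1qa at -2.09 and Csf1r at -1.41. All 10 pericyte and smooth muscle markers were higher (median 0.91), among them Rgs5 (2.93), Kcnj8 (1.78) and Cspg4 (0.94). So were 8 of 9 markers of fibro-adipogenic progenitors (median 0.90), with Mgp at 3.10, Dcn at 0.90 and Gsn at 0.97. All 9 lymphocyte markers were higher (median 0.67), with Cd3g at 4.15, Cd3d at 4.11 and Cd8a at 1.43. The 6 adipocyte markers had a median of 0.30, although Plin4, which muscle also expresses, stood at -2.07 ± 0.39, Cidec at 0.68 and Retn at 0.35. Xist, which coats and silences the inactive X in females, stood at -3.48 and -2.67 in the young pools and 3.21 and 2.97 in the aged pools. Its difference of 6.16 was the highest of all 18193 genes. Of the members, Idh3g, Pdha1 and Pdk3 lie on the X chromosome. The part of these cell types and of sex in the members' differences was not tested. As the sex of the mice is not given, a difference in sex between the ages cannot be told apart from age. Since the values carry no level, the labelled cell type could not be checked against the presence of its markers.

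**Figure D2:**
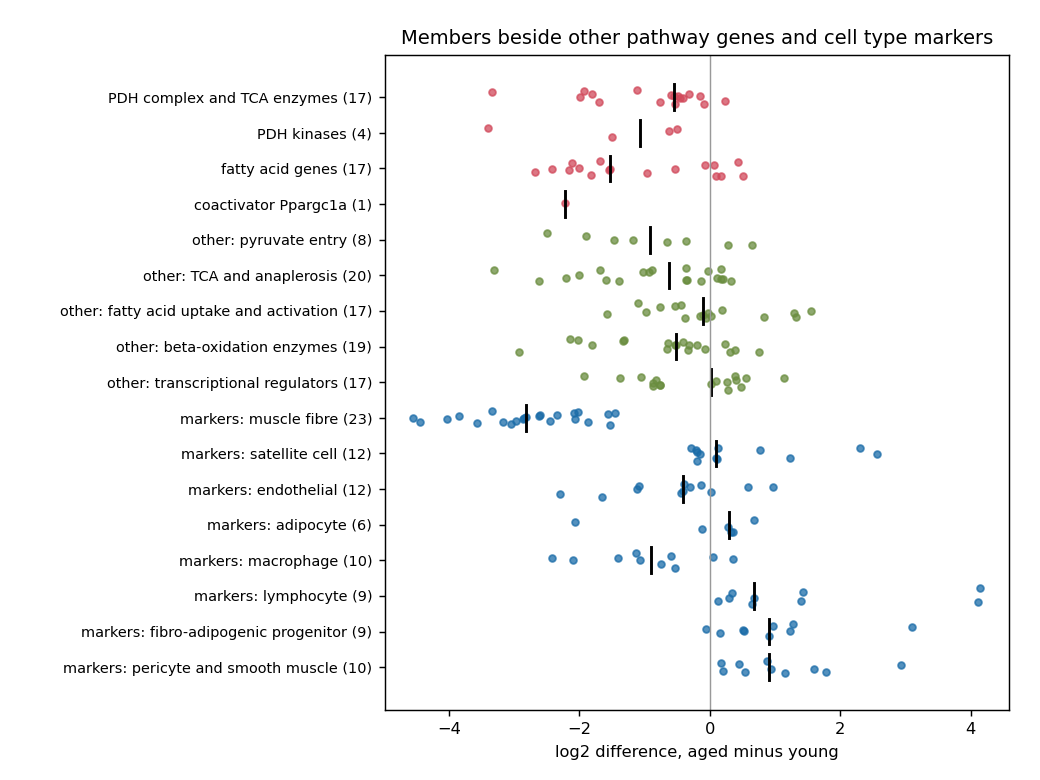
Log2 difference, aged minus young, of every measured gene in the members' groups (red), in the lists of other pathway genes (green) and in the cell type marker lists (blue), with black bars at the medians and the number of genes in brackets. Fibre markers have the lowest median, -2.82, and the 17 fatty acid genes spread from -2.68 to 0.51.

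The pyruvate dehydrogenase complex was split between its subunits. Dlat, the acetyltransferase that forms the core, stood at 1.604 and 1.82 in the young pools and at -1.68 and -1.58 in the aged pools. The ages lay far apart, and Dlat was 10.1-fold lower (-3.34 ± 0.36, adjusted p = 0.0998). Pdha1, the catalytic alpha subunit, read 0.85 and 0.64 in young cells and -1.86 and -0.64 in aged cells. Aged pool 1 was the lower of the aged pools, and the gene was 3.97-fold lower (-1.99 ± 0.51, adjusted p = 0.306). Its partner Pdhb, the beta subunit of the same enzyme, differed by -0.10 ± 0.48, and the ages overlapped; one of its probe sets read -0.91 and the other 0.72. Dld, the dehydrogenase that the complex shares with 2-oxoglutarate dehydrogenase, differed by -0.54 ± 0.45, also with overlap. Without young replicate 1, Pdha1 had an unadjusted p of 0.0561 in limma.

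All 4 kinases of the complex were lower, by very different amounts. Pdk2, the widely expressed isoform, stood at 1.72 and 1.59 in young pools and -1.89 and -1.59 in aged pools. It was 10.6-fold lower (-3.40 ± 0.37, adjusted p = 0.0998), the largest difference of any member. Pdk4, which is induced in muscle by fasting, read 0.48 and 0.96 against -0.48 and -1.09. This was a 2.83-fold lower mean (-1.50 ± 0.42, adjusted p = 0.348), with an unadjusted p in limma of 0.0770 without young replicate 2 and 0.0691 without aged replicate 2. Pdk1, a target of hypoxia signalling, differed by -0.63 ± 0.40 without overlap of the ages, but its 4 probe sets ran from -2.59 to 1.45. Pdk3 differed by -0.50 ± 0.61 with overlap. The median of the 4 kinases was -1.07, and -2.05 with the probe set of largest SD.

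In the first arm of the TCA cycle, 6 of 7 genes were lower, with a median of -0.55. Cs, citrate synthase, which joins acetyl-CoA to oxaloacetate, stood at 0.29 and 1.10 in young and -1.33 and -0.89 in aged pools. Both aged pools were below both young pools, and Cs was 3.50-fold lower (-1.81 ± 0.45, adjusted p = 0.293). Idh3a, the catalytic subunit of the NAD-dependent isocitrate dehydrogenase, read 0.68 and 0.89 in young pools and -0.93 and -0.88 in aged pools, and its pools of 1 age lay close together. Its mean was 3.24-fold lower (-1.69 ± 0.36, adjusted p = 0.215), and its 4 probe sets ran from -2.29 to -0.66. The other subunits of the enzyme differed little and overlapped. Idh3b stood at -0.15 ± 0.45, with probe sets from -1.71 to 1.74, and Idh3g at -0.41 ± 0.71.

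Of the remaining enzymes of this arm, Idh2, the NADP-dependent isocitrate dehydrogenase of mitochondria, differed by -0.55 ± 0.59. Ogdh, the first subunit of 2-oxoglutarate dehydrogenase, differed by -1.12 ± 0.71, with overlapping ages. Ogdh ranged from -0.36 without aged replicate 2 and -0.43 without young replicate 1 to -1.88 without aged replicate 1. Its unadjusted p in limma was 0.0286 with the replicate number as a block. Dlst, the core of that complex, differed by 0.24 ± 0.42. Its 4 probe sets ran from -1.54 to 2.48. With the probe set of largest SD it was the single member higher at an unadjusted p under 0.05, where 2.46% of all genes were higher. Dlst is the counterpart of Dlat in the related complex. The median of this arm depended on the pools kept, at -0.15 without young replicate 1, -1.19 without young replicate 2, -1.40 without aged replicate 1 and -0.09 without aged replicate 2.

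In the second arm, from succinyl-CoA to oxaloacetate, all 6 genes were lower by small amounts except Mdh2. Mdh2, the mitochondrial malate dehydrogenase, stood at 1.05 and 0.41 in the young pools and -0.58 and -1.83 in the aged pools. Aged pool 2 was the lowest, and the gene was 3.81-fold lower (-1.93 ± 0.55, adjusted p = 0.355). Its cytosolic relative Mdh1, part of the malate-aspartate shuttle, differed by -0.48 ± 0.38, with 5 probe sets from -1.21 to 0.95. The subunits of succinyl-CoA ligase were close to each other in their mean over probe sets. Sucla2, of the ATP-forming enzyme, differed by -0.46 ± 0.38, with 3 probe sets from -1.25 to -0.01. Suclg2, of the GTP-forming enzyme, differed by -0.76 ± 0.35, and the partner shared by both, Suclg1, by -0.59 ± 0.44. All were without overlap of the ages, but the ages were separated by only 0.13 in Sucla2 and 0.04 in Suclg1. Fh1, fumarase, differed by -0.32 ± 0.57 and overlapped. Mdh2 had an unadjusted p in limma of 0.0883 without young replicate 1 and 0.0662 without aged replicate 2. Taking its most variable probe set gave 0.0667.

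**Figure D3:**
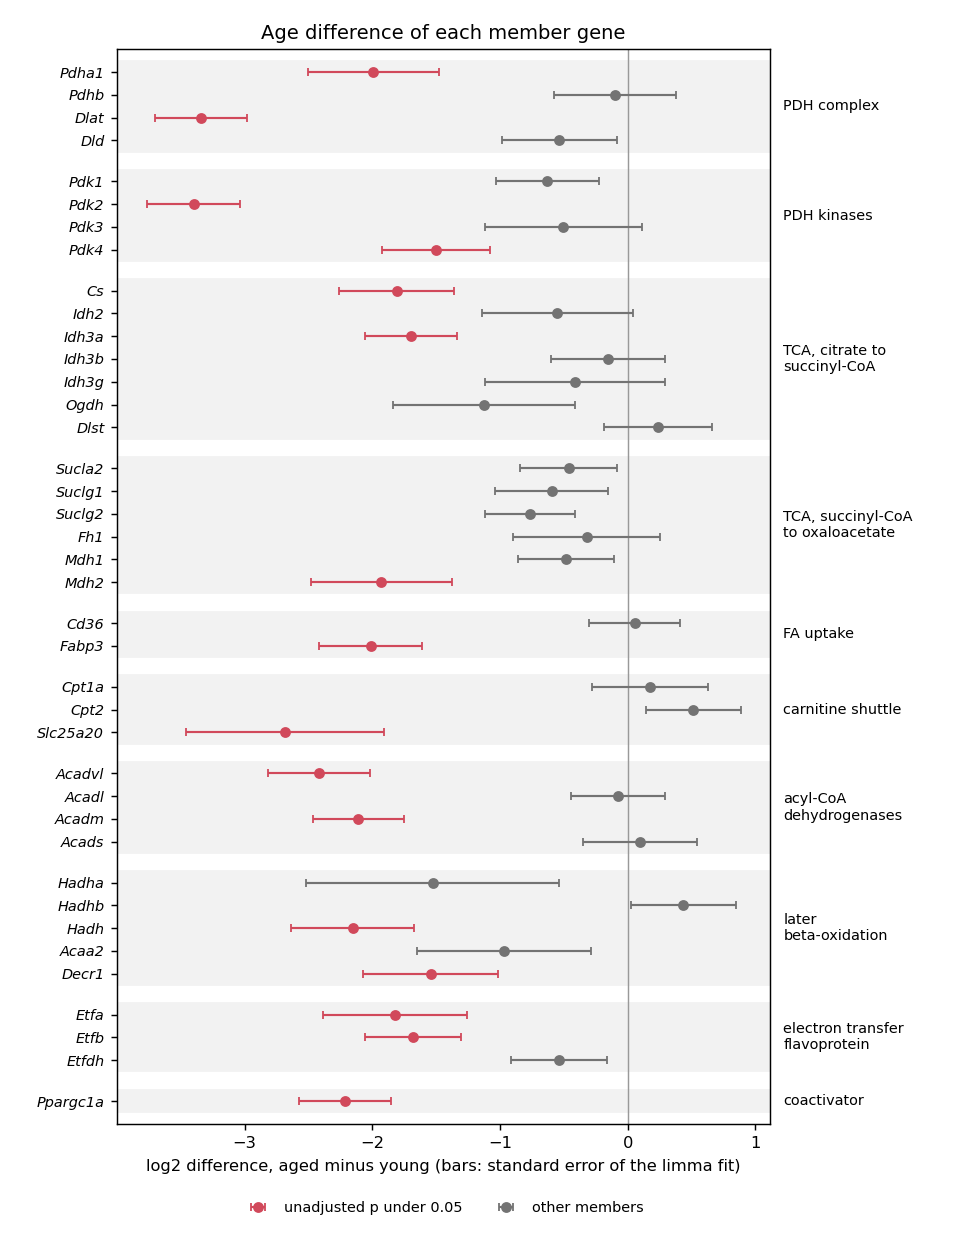
Log2 difference, aged minus young, of each member by pathway step; points are the limma estimates, bars 1 standard error, and red marks an unadjusted p under 0.05. The 16 red genes are all to the left of 0, from -3.40 for Pdk2 to -1.50 for Pdk4, and each step except the shuttle and uptake has most of its points below 0.

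Uptake and binding of fatty acids gave a contrast between 2 proteins. Fabp3, the fatty acid binding protein of heart and skeletal muscle, stood at 0.64 and 1.16 in young pools and -0.91 and -1.31 in aged pools. The ages were apart and the mean was 4.04-fold lower (-2.01 ± 0.40, adjusted p = 0.200), but its 2 probe sets read -3.97 and -0.06. Cd36, a fatty acid transporter of fibres, endothelium, macrophages and fat cells, stood at -0.03 and -0.06 in young and -0.02 and 0.04 in aged pools. Its values lay within a narrow band (0.06 ± 0.35, adjusted p = 0.986). Its 3 probe sets ran from -0.39 to 0.32, so the direction depended on the probe set.

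In the carnitine shuttle only the carrier was lower. Slc25a20, which exchanges acylcarnitine for carnitine across the inner membrane, stood at 1.73 and 0.55 in young pools and -0.55 and -2.53 in aged pools. The outer values came from young pool 1 and aged pool 2, and the gene was 6.42-fold lower (-2.68 ± 0.78, adjusted p = 0.360). Cpt1a, the liver-type enzyme that commits fatty acids to oxidation, read 0.29 and -0.53 in young pools and -0.18 and 0.29 in aged pools. The ages overlapped (0.18 ± 0.45, adjusted p = 0.961), and its probe sets ran from -0.43 to 1.22. Cpt2, which rebuilds acyl-CoA inside the mitochondrion, differed by 0.51 ± 0.37, with probe sets at -0.13 and 1.16. Slc25a20 stood at -2.09 without young replicate 1 and -1.69 without aged replicate 2, with unadjusted p-values in limma of 0.1004 and 0.0672.

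The acyl-CoA dehydrogenases, which start each round of beta-oxidation, divided evenly. Acadvl, for very long chains, stood at 1.38 and 0.997 in young pools and -1.46 and -0.997 in aged pools, a 5.34-fold lower mean (-2.42 ± 0.40, adjusted p = 0.152). Acadm, for medium chains, read 1.12 and 0.998 against -0.998 and -1.11. The pools of 1 age nearly coincided and Acadm was 4.32-fold lower (-2.11 ± 0.36, adjusted p = 0.158). Centring a single probe set on its median places its middle values at equal distances from 0, so for members with 1 probe set, such as Acadvl and Acadm, the inner values mirror each other by construction. The enzymes for long and short chains had differences near 0, with Acadl at -0.08 ± 0.37 and Acads at 0.10 ± 0.45, and both overlapped between ages.

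The later steps of beta-oxidation were led by Hadh, the dehydrogenase for short and medium chains. It stood at 0.85 and 0.80 in young pools and -1.86 and -0.79 in aged pools, 4.45-fold lower (-2.15 ± 0.48, adjusted p = 0.234). When probe sets of the _x_at and _s_at types, which can bind related transcripts, were left out, a single probe set remained for Hadh and read -0.97, with an unadjusted p of 0.175 in limma. Decr1, the reductase that handles unsaturated chains, read 1.36 and 0.32 against -0.30 and -1.11. It was 2.91-fold lower (-1.54 ± 0.53, adjusted p = 0.461), and -1.02 without young replicate 1 and -1.14 without aged replicate 2. Its unadjusted p in limma was 0.153 and 0.146 there, and 0.187 for its most variable probe set.

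Hadha and Hadhb encode the alpha and beta subunits of the mitochondrial trifunctional protein, which completes the oxidation of long chains. Hadha differed by -1.53 ± 0.99, with values of -0.18 and 0.62 in young pools and -2.80 and 0.18 in aged pools. Aged pool 1 alone was low, and the difference was -0.04 without aged replicate 1 and -3.02 without aged replicate 2 (unadjusted p = 0.00604 in limma). Hadhb differed by 0.44 ± 0.41, with probe sets from -0.55 to 1.62. Acaa2, the thiolase of the last step, differed by -0.97 ± 0.68, with overlapping ages. Its value was -0.12 without young replicate 1. Without young replicate 2 it was -1.82, with an unadjusted p of 0.0422 in limma.

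Both subunits of the electron transfer flavoprotein, which takes electrons from the acyl-CoA dehydrogenases, were lower. Etfa stood at 0.63 and 0.52 in young pools and -1.98 and -0.52 in aged pools, 3.53-fold lower (-1.82 ± 0.56, adjusted p = 0.399). Etfb read 0.77 and 0.72 against -0.72 and -1.16, 3.21-fold lower (-1.68 ± 0.38, adjusted p = 0.242). In Etfa aged pool 1 was far below the rest, in Etfb the pools of each age were closer. Etfdh, the oxidoreductase that hands these electrons to ubiquinone, differed by -0.54 ± 0.38 without overlap. Etfa was at -1.09 without aged replicate 1, and its unadjusted p in limma was 0.0679 there, 0.0891 without young replicate 1 and 0.0763 without young replicate 2.

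Ppargc1a, the coactivator, stood at 1.44 and 1.27 in young pools and at -0.92 and -0.80 in aged pools. The pools of each age lay close together and the mean was 4.64-fold lower (-2.21 ± 0.36, adjusted p = 0.150). All 5 of its probe sets were lower, from -3.80 to -0.50, but in some of them the young pools lay far apart. In 1 probe set the young pools read -0.15 and 3.43 and the aged pools 0.15 and -0.44, so the ages overlapped. In another the young pools read 3.79 and 0.40. The closeness of the pools is thus that of the mean over probe sets. For that mean, leaving out any 1 pool gave values from -2.30 to -2.13.

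By step, the median difference was -1.26 for the 4 genes of the pyruvate dehydrogenase complex, -0.54 for the 6 of the second TCA arm, -1.09 for the 4 acyl-CoA dehydrogenases, -1.53 for the 5 later beta-oxidation genes, -1.68 for the 3 electron transfer genes and 0.18 for the 3 shuttle genes. The sign of the shuttle median did not hold, as it was -0.13 when _x_at and _s_at probe sets were left out, -0.054 without aged replicate 2 and -0.23 without young replicate 2, against 1.16 with the probe set of largest SD. For the 17 enzymes of the dehydrogenase complex and the TCA cycle together the median was -0.55, with 5 lower at an unadjusted p under 0.05 (29.4%). For the 17 fatty acid genes it was -1.53, with 8 lower at that mark (47.1%), against 6.19% of all genes. The difference between these groups was not tested. The electron transfer median was -1.09 without aged replicate 1, the later beta-oxidation median -0.97 when _x_at and _s_at probe sets were left out, and the median of the 2 uptake genes, -0.98, was -2.18 with the probe set of largest SD.

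Probe sets of 1 gene often disagreed. Of 28 members with several probe sets, 12 had probe sets on both sides of 0. None of these 12 was among the 16 members with an unadjusted p under 0.05, of which 10 had several probe sets. A gene value is the mean of its probe sets, so probe sets on both sides of 0 pull it towards 0. Agreement between the probe sets of those 10 cannot be read from this. The 11 members with 1 probe set had a median of -1.53 and the 28 with several a median of -0.59. The members whose mean was near 0 include some, such as Dlst, Idh3b and Pdhb, whose single probe sets were far from it.

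**Figure D4:**
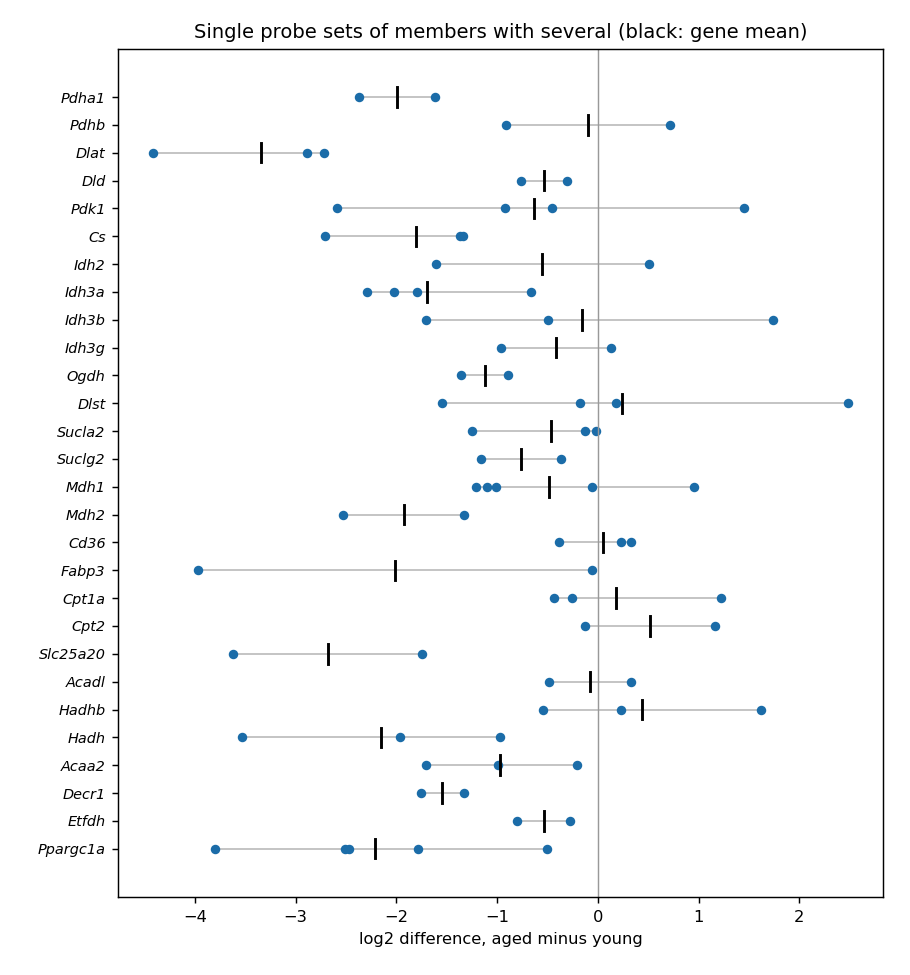
Log2 difference, aged minus young, of each probe set (blue) of the 28 members with more than 1, with the gene mean in black. The probe sets of Dlat run from -4.42 to -2.72 and those of Cs from -2.71 to -1.34, all below 0, while those of Dlst run from -1.54 to 2.48.

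A wider list of pathway genes was also lower more often than higher. Of 88 further genes listed by function, 81 were measured. Of these, 55 were lower (67.9%, against 46.2% of all genes) and 26 higher, with a median of -0.38. At an unadjusted p under 0.05, 15 were lower (18.5%) and 2 higher (2.47%), against the 6.19% and 2.85% of all genes. The smallest p-values among lower genes were those of Sdhb, the iron-sulphur subunit of succinate dehydrogenase (-2.20 ± 0.35), Slc25a11, the malate carrier (-2.62 ± 0.48), Me1, the cytosolic malic enzyme (-3.31 ± 0.65), and Tfb2m, a factor of mitochondrial transcription (-1.93 ± 0.40). Their adjusted p-values were 0.150, 0.173, 0.194 and 0.211.

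The genes higher at that mark were Fabp5 and Acaca. Fabp5, a fatty acid binding protein of skin, fat cells, macrophages and endothelium, stood at -0.62 and -0.92 in young pools and 0.96 and 0.60 in aged pools. It was 2.94-fold higher (1.56 ± 0.38, adjusted p = 0.288), opposite in direction to Fabp3. Acaca, the acetyl-CoA carboxylase of fatty acid synthesis, read -0.82 and -0.35 against 0.91 and 0.56, 2.50-fold higher (1.32 ± 0.40, adjusted p = 0.383). Acacb, the carboxylase of oxidative tissue, stood at -0.03 ± 0.37. Acaca had an unadjusted p in limma of 0.0891 without young replicate 1 and 0.0770 without aged replicate 1. Fabp5 had 0.0634 when its most variable probe set was used.

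Among 17 measured regulators the median was 0.02, and 2 were lower at an unadjusted p under 0.05 (11.8%, against 6.19% of all genes). They were Tfb2m and Esrrg, the estrogen-related receptor gamma of oxidative muscle (-1.38 ± 0.37), whose 3 probe sets ran from -3.26 to 0.68. The receptors named by choice differed little, with Ppara at 0.02 ± 0.36, Ppard at 0.48 ± 0.51 and Esrra at 0.27 ± 0.57. Under other settings Ppara ran to -0.34, Ppard to -0.11 and Esrra to -0.60, so none of these directions held throughout. Around pyruvate, 3 of 8 genes were lower at that mark (37.5%, against 6.19% of all genes). They were Pdhx, the protein that anchors Dld to the Dlat core (-2.49 ± 0.71), the carrier subunit Mpc1 (-1.90 ± 0.70) and lactate dehydrogenase Ldha (-1.47 ± 0.37). A further 19 genes were listed with beta-oxidation, among them enzymes of amino acid and ketone breakdown. Of these, 4 were lower at that mark (21.1%, against 6.19% of all genes). They were the isomerases Eci1 (-1.32 ± 0.46) and Eci2 (-2.93 ± 0.75), Ivd, of leucine breakdown (-2.14 ± 0.54), and Hsd17b10 (-2.02 ± 0.69). Esrrg, Acacb, Pdhx, Mpc1, Ldha, Eci1, Eci2, Ivd and Hsd17b10 were named after their values were seen.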

How the data were processed

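Expression was measured on Affymetrix arrays in 2 pools of sorted cells per age. Per the labels' protocols, RNA went through T7-based linear amplification in 2 rounds before biotin labelling. The table deposited by the authors holds 45101 probe sets, whose values were treated as log2 and have a 4-array median of 0 in each probe set. Not given in the sources used here are the base of the logarithm, background correction, probe summary and normalization. Another base would change every fold and no direction or p-value, and that a higher value means more RNA is an assumption. Such values carry no depth or level, and the number of arrays limits the precision.

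Gene names came from GEO's annotation of the array, brought up to date through Entrez IDs in RefSeq's GRCm38.p6 table (34741 of 34945 probe sets with 1 gene matched). The 932 with several genes, 9160 with none and 64 controls were left out. Ages were compared on gene values, the means over probe sets, by lmFit and eBayes of limma 3.58.1 under R 4.3.3 (no variance trend, two-sided, aged minus young), with 2 residual and 3.56 prior degrees of freedom and Benjamini-Hochberg adjustment over 18193 genes. Errors written as ± are limma's standard errors, with 2 pools at each age. As independent pools are named, the errors and p-values reflect the spread between pools. For each gene eBayes draws that spread towards the spread shared by all genes, so it is not the gene's own alone. The fit was tested on simulated independent values drawn from its own model of the spread. Neither the removal of medians nor the averaging of probe sets was simulated, so the test does not bear on these. Figures used matplotlib 3.10.9.

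Alternatives were the probe set with the largest SD, leaving out _x_at and _s_at probe sets, quantile normalization, a variance trend, the replicate number as a block and leaving out each pool. Every member is named. Pool values are given for members with an unadjusted p under 0.05 and for Ppargc1a, Pdk4, Cpt1a, Cd36 and Fabp3 by choice, and Hadha's were added after its values were seen. Of the other pathway genes, up to 4 per direction with an unadjusted p under 0.05 are named by smallest p (2 higher genes had one), with Ppara, Ppard and Esrra, and of each marker list the 3 with the smallest p. The members and lists were chosen with earlier results of these data known. Protein comparisons that had been planned were not made, as protein sequences were not used here.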

Additional observations from a re-analysis of the deposited data

How the results depend on the processing

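With 2 pools per age no gene passed an adjusted p of 0.05 in limma, except with a variance trend. There 221 genes did against 0, 4 of them members (Dlat 0.00651, Pdk2 0.00611, Acadvl 0.0265, Acadm 0.0335). The trend follows each gene's mean value, which is no expression level once the medians are removed. No conclusion is therefore drawn from the genes that passed with it. All 16 members with an unadjusted p under 0.05 stayed lower under all 9 alternatives, and 9 of them (Dlat, Pdk2, Cs, Idh3a, Fabp3, Acadvl, Acadm, Etfb, Ppargc1a) kept that p. In most of the alternatives that direction could not have turned. The variance trend and the replicate block leave the difference itself unchanged. The ages of these 16 members did not overlap, so leaving out a pool keeps the sign. The pools share numbers in the labels but nothing says that a number marks a shared origin. Deviations of same-numbered pools correlated at 0.138 over genes. With the replicate block 17 members were lower at that mark, as were 6.70% of all genes. Other causes of the shifts below were not tested.

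With the probe set of largest SD, 1 of 39 members was higher at that mark, as were 2.46% of all genes. The medians there were -1.33 for all members, -1.64 for the dehydrogenase complex, -2.05 for its kinases, -1.09 for the second TCA arm and -2.18 for uptake. They were 1.16 for the shuttle, -1.30 for the acyl-CoA dehydrogenases and -0.59 for the other pathway genes. That setting also turned Idh3b to 1.74, Cd36 to -0.39, Ppara to -0.34 and Esrra to -0.60. With _x_at and _s_at probe sets left out the second TCA arm was at -0.41, later beta-oxidation at -0.97, Idh3b at 0.62 and Cpt2 at -0.13. Quantile normalization gave -1.12 for the dehydrogenase complex, -0.96 for the acyl-CoA dehydrogenases, -1.54 for electron transfer, 0.0268 for Acadl and -0.0048 for Ppara.

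Leaving out each pool in turn gave medians of -1.13 to -0.66 for all members, -1.34 to -1.19 for the dehydrogenase complex and -1.44 to -1.01 for the kinases. The first TCA arm ran from -1.40 to -0.0897 and the second from -0.71 to -0.56. Medians were -1.82 to -1.02 for later beta-oxidation, -1.71 to -1.09 for electron transfer and -0.36 to -0.31 for the other pathway genes. Over the same settings the direction turned for Pdhb (-0.49 to 0.29), Pdk3 (-1.11 to 0.10), Idh2 (-1.19 to 0.0895), Idh3b (-0.58 to 0.28), Idh3g (-1.40 to 0.57), Dlst (-0.14 to 0.61), Fh1 (-1.07 to 0.44), Cpt1a (-0.23 to 0.59), Acadl (-0.21 to 0.0597), Acads (-0.24 to 0.43), Ppara (-0.0821 to 0.13), Ppard (-0.11 to 1.06) and Esrra (-0.41 to 0.96).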
